A study of Mus musculus with 12 samples.

Results

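The expression of 8 genes of fatty acid oxidation was examined in mouse liver: Cpt1a, Cpt2, Acadm, Acadl, Acadvl, Hadha, Hadhb and Ehhadh. The genes were chosen by name out of 24062 genes in the count tables. All 8 passed the filter on low counts, which asks for 1 CPM (read counts scaled to an equal library total) or more in 2 or more of the 12 mice, and so belong to the 12481 genes tested. The working name of the set also mentions ketogenesis, but none of the 8 genes encodes an enzyme that makes ketone bodies, so those genes are described from a separate list.

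Liver RNA was sequenced from 12 female C57BL/6J mice, of which 6 ate a control diet and 6 ate a matched diet that delivered BIBB-515 at 55 mg/kg body weight for 10 days. BIBB-515 inhibits lanosterol synthase, an enzyme of cholesterol synthesis, and the comparison asks how liver gene expression responds to that inhibition. The mice arrived at 6 weeks of age, were acclimated for 2 weeks, and all ate the control diet, with 15% of its energy from fat, 65% from carbohydrate and 20% from protein, for 3 days before the groups were formed. The study had 11 mice per group, the libraries carry mouse numbers 1 to 6 for control and 6 to 11 for BIBB-515, and the study drew blood after a 5 h fast but does not state the feeding state at which the livers were taken.

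Fatty acids enter the mitochondrion as carnitine esters and are then shortened by repeated rounds of dehydrogenation, hydration, a further dehydrogenation and thiolytic cleavage, each round releasing acetyl-CoA. Liver uses this route during fasting to fuel glucose synthesis and to supply acetyl-CoA for ketone bodies, which other tissues burn. Peroxisomes run a parallel route for very long and dicarboxylic chains, and the nuclear receptor PPARA controls many genes of both.

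Control libraries held 22764819 to 27914647 gene counts (median 25188376), and libraries of BIBB-515 mice 24223939 to 31058370 (median 27056289). The 8 genes together took from 0.193% to 0.325% of the counts of a control mouse and from 0.233% to 0.316% of those of a BIBB-515 mouse. No member had fewer than 1810 counts in any mouse, so counting error was small beside the spread between mice. The lowest of these counts was that of Hadhb in control mouse 3.

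Control mouse 3 stood apart in these genes. It had the lowest CPM of the control mice in 7 of the 8 members, with Ehhadh as the exception, whereas it was the lowest control mouse in 19.0% of all tested genes. Lists described below shared this trait: it was lowest in 10 of 17 other mitochondrial, 14 of 17 peroxisomal and 10 of 16 other PPARA target genes. In the tricarboxylic acid cycle it was lowest in 2 of 17. Its members lay on average -0.50 on the log2 scale from the control mean, followed by -0.16 in control mouse 4, while control mice 5 and 6 lay 0.29 and 0.32 above. The diet differences of the 8 members are therefore given with and without control mouse 3, a choice made after its values were seen.

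The summed level of the 8 members was 1927 CPM in the lowest control mouse, 2792 CPM at the median and 3377 CPM in the highest, against 2353, 2571 and 3045 CPM with BIBB-515. The groups overlapped, and the control mice were spread more widely, with a mean of 2758 ± 545 CPM (SD, n = 6) against 2619 ± 236 CPM (SD, n = 6). As shares of the raw counts, without the TMM scaling, the means were 0.270% in control and 0.267% in BIBB-515 mice. Of the 8 members, 0 passed an FDR of 0.05 in edgeR's quasi-likelihood test, where 13.7% of all tested genes were called, 7.18% as higher and 6.48% as lower with BIBB-515. At an unadjusted p under 0.05 the count was also 0, beside 29.7% of all tested genes, and each alternative called 0 members and found 0 at an unadjusted p under 0.05. These were DESeq2 (18% of tested genes called), limma-voom (13.4%), upper-quartile normalization (13.7%), no filter on low counts (8.15%), 1 CPM in 6 or more mice (14.2%) and the primary-alignment tables (13.7%). The groups overlapped in all 8 members, whereas they did not overlap in 7.07% of the tested genes, 4.35% as higher and 2.72% as lower. Log2 fold changes lay below 0 in 5 of 8 members, and their median was -0.075 on the log2 scale against -0.014 over all tested genes. In bulk liver, fewer cells of a type and less RNA per cell cannot be told apart.

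Without control mouse 3 the count of members called was 1, Acadl, in a fit that called 14.6% of 12451 genes, 8.08% as higher and 6.51% as lower with BIBB-515. The members with an unadjusted p under 0.05 then numbered 3, beside 29.6% of all tested genes, namely Acadl, Cpt1a and Hadhb, all with lower values in BIBB-515 mice. All 8 log2 fold changes then lay below 0, with a median of -0.12 against -0.0012 over all tested genes. The median moved the other way without control mouse 6, to -0.011 with 4 of 8 below 0. Without control mouse 5 it was -0.014, with 5 of 8 below 0. Leaving out any of the other 11 mice called 0 members.

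**Figure D1:**
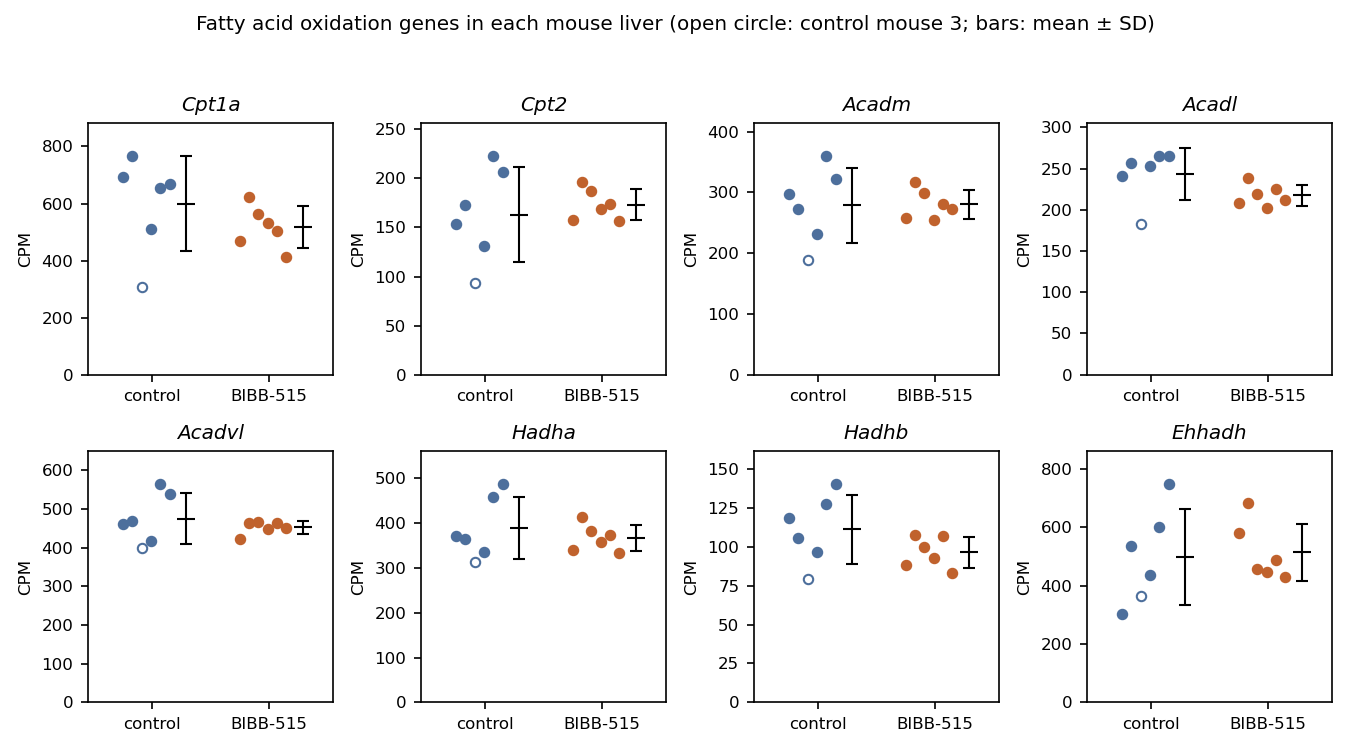
Level of each of the 8 fatty acid oxidation genes in CPM (vertical axis, from 0) in 6 control and 6 BIBB-515 mice, with points from left to right in order of mouse number, the open circle for control mouse 3, and bars for the mean ± SD. The groups overlap in all 8 genes, and the open circle is the lowest control value in 7 of them.

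The carnitine shuttle is represented by 2 genes. Cpt1a (chromosome 19, 3323301 to 3385733, plus strand, mm10) encodes carnitine palmitoyltransferase of the outer mitochondrial membrane, the step that malonyl-CoA inhibits. In control mice it had 306 CPM in the lowest mouse, a median of 661 CPM and 766 CPM in the highest, and with BIBB-515 412, 518 and 623 CPM. Control mouse 3 lay below every other mouse, control mouse 2 was highest, and 5 of 6 BIBB-515 mice were below the control mean. The log2 fold change was -0.21 (SE 0.18, 95% interval -0.59 to 0.16; edgeR, FDR 0.453), an interval that runs from 0.664 to 1.12 as a fold. Without control mouse 3 it was -0.34 (95% interval -0.58 to -0.10) and still missed the threshold (edgeR, FDR 0.0586).

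Cpt2 (chromosome 4, 107903982 to 107923589, minus strand) encodes the partner enzyme of the inner membrane, which returns the acyl group to CoA. Its level was 93.0 CPM in the lowest control mouse, 163 CPM at the median and 223 CPM in the highest, and 156, 172 and 196 CPM with BIBB-515. All 6 BIBB-515 mice lay inside the control range, above control mice 1, 3 and 4 and below control mice 5 and 6. The log2 fold change was 0.088 (SE 0.16, 95% interval -0.26 to 0.44; edgeR, FDR 0.766), and -0.022 without control mouse 3.

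The acyl-CoA dehydrogenases open each round of oxidation and differ in the chain length they prefer. Acadvl (chromosome 11, 70010183 to 70015428, minus strand), for very long chains, had 399 CPM in the lowest control mouse, 465 CPM at the median and 565 CPM in the highest, and 422, 458 and 466 CPM with BIBB-515. The BIBB-515 mice formed a narrow band, all 6 below the control mean, inside a control range set by mouse 3 at the bottom and mouse 5 at the top. Its log2 fold change was -0.068 (SE 0.086, 95% interval -0.25 to 0.12; edgeR, FDR 0.643), and -0.10 without control mouse 3.

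Acadl (chromosome 1, 66830839 to 66863309, minus strand), for long chains, had 182 CPM in the lowest control mouse, 255 CPM at the median and 265 CPM in the highest, and 202, 216 and 238 CPM with BIBB-515. Here 5 control mice lay above all 6 BIBB-515 mice and control mouse 3 lay below all of them. With all mice the log2 fold change was -0.16 (SE 0.087, 95% interval -0.35 to 0.021; edgeR, FDR 0.222; two-sided exact permutation test, p = 0.117), with 6 of 6 BIBB-515 mice below the control mean. Without control mouse 3 Acadl fell by 0.23 on the log2 scale (SE 0.060, 95% interval -0.36 to -0.10; edgeR, FDR 0.0215). The diets then did not overlap, as in 9.38% of tested genes compared in the same way, 3.9% as lower. The FDR of Acadl ranged from 0.0215 to 0.369 over the 12 fits that left out 1 mouse, so this call rests on that mouse.

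Acadm (chromosome 3, 153922353 to 153944643, minus strand), for medium chains, had 189 CPM in the lowest control mouse, 285 CPM at the median and 359 CPM in the highest, and 254, 277 and 317 CPM with BIBB-515. The BIBB-515 mice again fell inside the control range, 3 above and 3 below the control mean. Its log2 fold change was 0.0081 (SE 0.13, 95% interval -0.27 to 0.28; edgeR, FDR 0.977), an interval from 0.831 to 1.22 as a fold, and -0.073 without control mouse 3.

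Hadha and Hadhb encode the alpha and beta subunits of the mitochondrial trifunctional protein, which carries out the later steps of each round on long chains. Hadha (chromosome 5, 30118304 to 30154980, minus strand) had 313 CPM in the lowest control mouse, 369 CPM at the median and 487 CPM in the highest, and 334, 366 and 414 CPM with BIBB-515. Control mice 5 and 6 lay above all BIBB-515 mice and control mouse 3 below all of them. Its log2 fold change was -0.082 (SE 0.11, 95% interval -0.31 to 0.14; edgeR, FDR 0.652), and -0.13 without control mouse 3.

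Hadhb (chromosome 5, 30155253 to 30184593, plus strand) had 79.2 CPM in the lowest control mouse, 112 CPM at the median and 140 CPM in the highest, and 82.8, 96.2 and 108 CPM with BIBB-515. All 6 BIBB-515 mice were below the control mean and above control mouse 3. Its log2 fold change was -0.21 (SE 0.12, 95% interval -0.46 to 0.049; edgeR, FDR 0.269; two-sided exact permutation test, p = 0.193). Without control mouse 3 it was -0.28 (95% interval -0.49 to -0.070; edgeR, FDR 0.0708), short of the threshold.

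Ehhadh (chromosome 16, 21761285 to 21787834, minus strand) encodes the peroxisomal bifunctional enzyme, a classical PPARA target. It had the largest coefficient of variation of the members between control mice, with 303 CPM in the lowest, a median of 486 CPM and 749 CPM in the highest, against 431, 473 and 685 CPM with BIBB-515. Its lowest control value was in mouse 1, not in mouse 3, and the groups overlapped widely. The log2 fold change was 0.047 (SE 0.19, 95% interval -0.36 to 0.46; edgeR, FDR 0.900), and -0.019 without control mouse 3. The fold therefore lay between 0.778 and 1.37 at 95% confidence, the widest interval of the members.

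**Figure D2:**
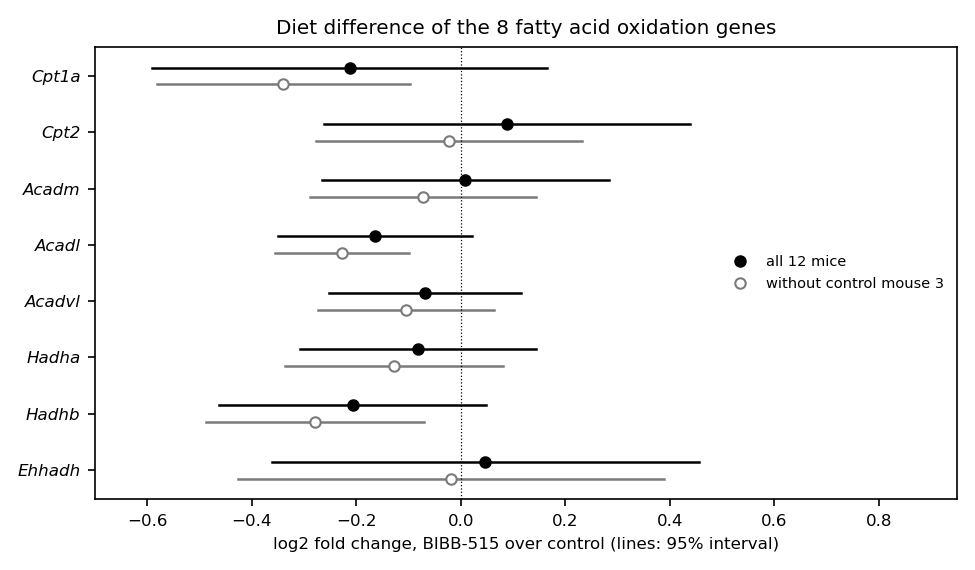
Log2 fold change of BIBB-515 over control (horizontal axis) for each of the 8 genes, filled circles for all 12 mice and open circles without control mouse 3, with lines for 95% intervals. All 8 intervals from 12 mice include 0, while those of Cpt1a, Acadl and Hadhb do not once control mouse 3 is left out.

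With all mice, the coefficient of variation of CPM was larger on the control diet for all 8 members. Its median over the members was 21.0% in control mice and 8.90% in BIBB-515 mice. The same held for 77.8% of all tested genes and for 88.5% of the 2153 tested genes whose average log2 CPM reached 6, so a wider control group was common at the members' expression level. With control mouse 3 left out, a choice made after seeing its values, this held for 7 of 8 members, 73.5% of all tested genes and 84.9% of those 2153, and the control median over the members was 15.4%. Acadl then went from 12.9% to 3.82% in control mice, below its 5.92% with BIBB-515, and Cpt1a from 27.8% to 14.2%, equal in these digits to its BIBB-515 value of 14.2%. With all mice the coefficient was smallest for Acadvl with BIBB-515, at 3.66%, and largest for Ehhadh on the control diet, at 32.9%. Within the BIBB-515 group, mouse 7 was highest in 7 of 8 members and mouse 11 lowest in 5.

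The members varied together from mouse to mouse. After the mean of each diet was removed, the correlation across 12 mice of each member with the average of the other 7 ranged from 0.61 for Ehhadh and 0.78 for Cpt1a to 0.98 for Cpt2. The value for Cpt1a was 0.52 and that for Cpt2 0.95 without control mouse 3, and the genes of a library share its total and normalization. Among 4042 other tested genes whose average log2 CPM reached 5, those that followed the average of the members most closely were Pctp (r = 0.975), Acsl1 (r = 0.972), Slc27a2 (r = 0.970), Cyp4a10 (r = 0.970) and Oplah (r = 0.968), described here without a test. With the floor lowered to 2 the same 5 led, and without control mouse 3 their r lay from 0.927 to 0.952. Acsl1 and Slc27a2 activate and import fatty acids and Cyp4a10 omega-hydroxylates them, and none of the 5 passed an FDR of 0.05 between diets.

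Levels between genes were compared per kilobase of exon (RPKM). Acadvl stood highest, at 212 ± 21.5 RPKM (SD, n = 12), followed by Ehhadh at 168 ± 42.9, Acadm at 136 ± 21.7, Cpt1a at 130 ± 30.2, Acadl at 118 ± 13.7, Hadha at 98.5 ± 13.5, Cpt2 at 71.6 ± 14.7 and Hadhb at 50.04 ± 8.73 RPKM. The order of Acadl above Hadha, Hadha above Cpt2 and Cpt2 above Hadhb held within each of the 12 mice. Acadm lay above Cpt1a in 8 mice and Cpt1a above Acadl in 9, so these neighbours did not differ beyond their spread. Acadvl exceeded Ehhadh in 10 mice and Ehhadh exceeded Acadm in 11. The subunits of the trifunctional protein were thus unequal in RPKM in every mouse, with Hadha above Hadhb. Coverage along Hadhb was uneven, however. Its exon 12, of 122 bases, had 2.91 CPM in control mice, beside 15.35 CPM in exon 11 and 12.71 CPM in exon 13. The part of uneven coverage in this order of RPKM was not tested.

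Whether members of the pathway responded differently was tested on 5 ratios of counts within a mouse, which need no normalization. The log2 ratio of Cpt1a to Cpt2 was 1.88 ± 0.26 (SD, n = 6) in control mice and 1.57 ± 0.10 (SD, n = 6) in BIBB-515 mice, a difference of -0.31 (two-sided exact permutation test, p = 0.0173, 0.0866 when adjusted over the 5 ratios). All 6 BIBB-515 mice were below the control mean, 2 of them below every control mouse, yet the difference did not pass the correction. The ratio of Acadl to Acadm differed by -0.19 (exact permutation p = 0.0541, adjusted 0.0902) and that of Hadha to Hadhb by 0.12 (exact permutation p = 0.0519, adjusted 0.0902).

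Acadvl to Acadm and Ehhadh to Hadha differed by -0.093 and 0.16, with exact permutation p of 0.266 and 0.374. Over the fits that left out 1 mouse they ranged from -0.12 to -0.036, the latter without control mouse 3, and from 0.038, without control mouse 1, to 0.22. With all mice 0 of the 5 ratios passed after adjustment, and 1, Cpt1a to Cpt2, had an unadjusted p under 0.05. For Hadha to Hadhb, 5 BIBB-515 mice had log2 ratios from 1.94 to 2.01 and mouse 10 had 1.81, while control mouse 3, at 1.98, was the highest control mouse and the others ran from 1.66 to 1.84. This outcome depended on which mice were included. With control mouse 3 left out, Hadha to Hadhb differed by 0.16 (exact permutation p = 0.00649, adjusted 0.0325) and Cpt1a to Cpt2 by -0.34 (exact permutation p = 0.0173, adjusted 0.0433), and Acadl to Acadm, at -0.17, did not pass (adjusted 0.148). With control mouse 5 left out, Cpt1a to Cpt2 differed by -0.37 and Acadl to Acadm by -0.24 (each with an exact permutation p of 0.00216, the smallest possible, adjusted 0.00541). Leaving out any of the other 10 mice gave 0 ratios past the adjustment.

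**Figure D3:**
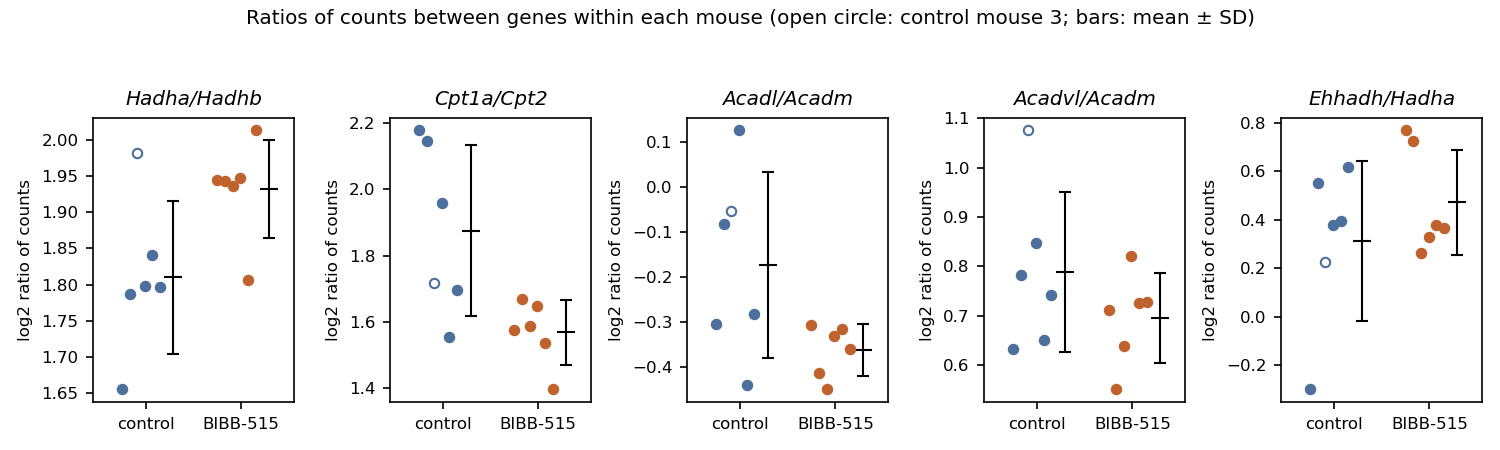
Log2 ratio of counts between 2 genes of the same mouse (vertical axis, a separate scale in each panel) in 6 control and 6 BIBB-515 mice, with points in order of mouse number, the open circle for control mouse 3, and bars for the mean ± SD. The BIBB-515 points of Cpt1a to Cpt2 all lie below the control mean, and the groups overlap in all 5 panels.

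Counts per exon, in which a read is counted in each exon it touches, show where in each gene the reads fell. Acadl had 11 exons, and the BIBB-515 level was below the control level in all 11, by a log2 ratio of -0.027 to -0.22. Cpt2 and Ehhadh were above it in each of their 5 and 7 exons, and Cpt1a below it in 17 of the 18 exons that had a mean of at least 50 counts. The sign of the difference was thus shared by every exon of Acadl, Cpt2 and Ehhadh, and Cpt1a had 1 exception among those 18, exon 2 at 0.071. The exons of a gene come from the same mice and share reads, so their common sign is not separate evidence. Hadha ran from 0.19 in its first exon to -0.21 in exon 11 and was below 0 in 17 of 20. The sign also changed along Acadm, Acadvl and Hadhb. These were below 0 in 2 of 12, 18 of 20 and 13 of 15 exons that had a mean of at least 50 counts. Reads at the 5′ end relative to the 3′ end differed between libraries: the log2 ratio of the first to the last exon with a mean of at least 50 counts had a higher mean in BIBB-515 than in control mice in 8 of 8 members, with a median difference in means of 0.26, and a higher median in 7 of 8, Ehhadh being the exception. Control mouse 4 had the lowest ratio of its group in every member and BIBB-515 mouse 11 of its own, for example -5.44 in control mouse 4 for Acadm against a control median of -4.57. The part of this uneven coverage in the gene-level differences was not tested.

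Hadha and Hadhb lie head to head and are transcribed away from each other. In the GENCODE annotation the stretch chr5:30155163-30155247 separates their outermost starts, so it precedes both genes at once and belongs to no transcript of either. It is shown because the subunits share it, from the RefSeq promoter windows (GRCm38.p6), on the plus strand and with the motif GGGCGG, a GC box, in capitals.

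Between Hadha and Hadhb: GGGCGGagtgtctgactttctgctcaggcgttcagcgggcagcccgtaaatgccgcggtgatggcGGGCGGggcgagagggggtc

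The 85 bases were 69.4% G or C and held 2 GC boxes. Promoter windows of 300 bases, 250 before and 50 after the start, matched all 8 members, and 6 of 8 held GGGCGG on either strand beside 35.7% of 32851 promoter windows. The windows of Hadha and Hadhb share 228 of their 300 bases and 1 GC box, so these 2 of the 6 are not separate sequences, and 4 of the other 6 members held the motif. Their G and C content ran from 50.7% in Acadvl to 70.3% in Acadl, with a median of 60.7% against 52.7% for all windows. This motif was chosen after the windows were read.

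A direct repeat of AGGTCA with 1 base between the copies, the spacing that PPARA with its partner RXR prefers, was found in 0 of 8 member windows and in 0.0396% of all windows on either strand. The looser repeat of AGGNCA with the same spacing was likewise in 0 of 8 members and in 0.381% of all windows. It occurred in 1 of the 112 windows of the pathway genes, that of Fabp1, on the minus strand at chr6:71199804-71199832 upstream of the gene. These letters are shown with the motif in capitals since Fabp1 was also the gene of its list that fell with BIBB-515. Any tie between the motif and that fall was not tested.

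Fabp1: tcagatatAGGCCATAGGTCAgtgattgt

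The list of ketone body genes held 6 genes, among them Acat1 and Bdh1 of synthesis, Oxct1 of use and the transporter Slc16a6. Of the 6 genes 1 (16.7%, against 13.7% of all tested genes) passed an FDR of 0.05, Slc16a6, which was 9.20 to 13.3 CPM in control mice (median 10.4) and 6.12 to 8.55 CPM with BIBB-515 (median 7.64). The groups did not overlap, and it fell by 0.52 on the log2 scale (95% interval -0.74 to -0.30; edgeR, FDR 0.00411), lower in 6 of 6 mice.

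Acat1, the thiolase, had a log2 fold change of -0.34 that did not pass (edgeR, FDR 0.0730), with 6 of 6 BIBB-515 mice below the control mean. The dehydrogenase Bdh1, at -0.15, and Oxct1, at -0.14, had FDR of 0.463 and 0.457 in edgeR. Control mouse 3 was the lowest control mouse in 4 of the 6 genes. Without it the list had 3 calls of 6, against 14.6% of all tested genes, among them Acat1 at -0.40 (edgeR, FDR 0.0179) and Slc16a6 at -0.53 (edgeR, FDR 0.00532). Acat1 was also called without control mouse 2, at -0.39 (edgeR, FDR 0.0450), and with all mice in DESeq2 (FDR 0.0368), but in 0 of the other 10 fits that left out 1 mouse.

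Other genes of mitochondrial oxidation numbered 17 tested, of which 2 rose and 0 fell (11.8% called, against 13.7% of all tested genes), with a median log2 fold change of 0.023 against -0.014. Without control mouse 3 this median was -0.070, with 10 of 17 genes below 0 and 1 called. Without control mouse 6, where 16 were tested, it was 0.105. Acad10, a relative of the acyl-CoA dehydrogenases, had 24.6 to 39.7 CPM in control mice and 40.5 to 48.1 CPM with BIBB-515, and rose by 0.53 (edgeR, FDR 0.00279). Echs1, the short-chain enoyl-CoA hydratase, rose by 0.21 (edgeR, FDR 0.0434), a call that was kept in 2 of the 12 fits that left out 1 mouse, those without control mouse 2 or 5, and lost in the other 10 (FDR 0.0201 to 0.0886 over the 12, log2 fold change 0.19 to 0.25) and with no filter on low counts. The carnitine carrier Slc25a20 did not pass, at -0.094 (edgeR, FDR 0.726), and neither did the most abundant of the list per length, the thiolase Acaa2, at -0.16, and the electron carrier Etfb, at -0.016 (edgeR, FDR 0.311 and 0.934).

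Of 17 tested genes of peroxisomal oxidation, which work beside Ehhadh, 2 rose and 0 fell, also 11.8%, with a median of 0.00015. Without control mouse 3 the median was -0.072, with 12 of 17 below 0, and 2 rose and 1 fell. Without control mouse 5 it was 0.077, and 3 rose and 0 fell. Acox2, the oxidase of branched chains and bile acid intermediates, rose by 0.39 (edgeR, FDR 0.00187), higher in 6 of 6 mice and without overlap between the diets. The abundant thiolase Acaa1b, at -0.092, did not pass (edgeR, FDR 0.831), and control mouse 3 was the lowest control mouse in 14 of these 17 genes.

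Among 13 tested genes of fatty acid uptake and activation 1 fell and 0 rose, or 7.69% called against 13.7% of all tested genes. Fabp1, the cytosolic fatty acid binding protein of liver, was 2544 to 6468 CPM in control mice (median 5009) and 2203 to 3664 CPM with BIBB-515 (median 2974), and fell by 0.68 (95% interval -1.13 to -0.23; edgeR, FDR 0.0442). Fabp1 was not called in limma-voom (FDR 0.0676), and of the 12 fits that left out 1 mouse it was called in 3, those without control mouse 2 or 3 or BIBB-515 mouse 7, at a log2 fold change of -0.80 (edgeR, FDR 0.00844) without control mouse 3. Acsl1 and Slc27a2, which activate long chains and varied with the members, were not called with all mice (-0.36 and -0.30) and were called without control mouse 3, at -0.47 (edgeR, FDR 0.0411) and -0.43 (edgeR, FDR 0.0343).

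Malonyl-CoA, the inhibitor of Cpt1a, is made by Acaca and Acacb and removed by Mlycd. Of these 3 genes 0 passed in edgeR, against 13.7% of all tested genes, and 2 had an unadjusted p under 0.05, against 29.7%. DESeq2 and limma-voom called 0, against 18% and 13.4% of all tested genes, with 1 and 0 at an unadjusted p under 0.05. In edgeR that count was 0 without control mouse 3 or BIBB-515 mouse 7, 8 or 10, and 1 without control mouse 2 or 4. Acaca, named after its values were seen, was 123 to 1098 CPM in control mice (median 259) and 120 to 258 CPM with BIBB-515 (median 198), with control mouse 3 highest and the other control mice at 409 CPM or less, and its log2 fold change went from -1.001 (edgeR, FDR 0.127) to -0.35 (edgeR, FDR 0.413) without that mouse. Acacb was 239 to 748 CPM in control mice (median 328) and 211 to 332 CPM with BIBB-515 (median 284). Its highest value was also in control mouse 3, the mouse in which Cpt1a was lowest, and the fold went from -0.55 (edgeR, FDR 0.141) to -0.28 without that mouse. Mlycd differed by 0.098 (edgeR, FDR 0.532).

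The regulators of the pathway gave 4 calls of 14 tested genes (28.6%, against 13.7% of all tested genes), 3 lower and 1 higher. Fgf21, a fasting hormone of the liver and PPARA target, was 5.73 to 19.5 CPM in control mice (median 10.0) and 1.82 to 4.35 CPM with BIBB-515 (median 3.41), and fell by 1.80 (95% interval -2.36 to -1.24; edgeR, FDR 0.000508). The coactivator Ppargc1a fell by 0.79 (edgeR, FDR 0.0139) and the deacetylase Sirt1 by 0.31 (edgeR, FDR 0.0236), while the nuclear receptor Esrra rose by 0.39 (edgeR, FDR 0.0110). For each of these 4 all 6 BIBB-515 mice lay on the same side of the control mean, but the groups overlapped in Ppargc1a, Sirt1 and Esrra. Each was also called without control mouse 3, but Sirt1 was not called without BIBB-515 mouse 8 or mouse 9 (edgeR, FDR 0.0554 and 0.0569).

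Ppara itself was 235 to 430 CPM in control mice (median 326) and 244 to 324 CPM with BIBB-515 (median 265), a difference of -0.27 that missed the threshold (edgeR, FDR 0.164). Ppara was called once control mouse 3 was left out, at -0.34 (edgeR, FDR 0.0430). Creb3l3, a liver factor that acts with PPARA, was at 0.18 (edgeR, FDR 0.492) and 0.058 without that mouse, and the abundant liver factor Hnf4a was at -0.15 (edgeR, FDR 0.368).

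Other known PPARA targets gave 3 calls of 16 tested genes (18.8%, against 13.7% of all), and 14 of 16 had a log2 fold change below 0, against 6606 of all 12481 tested genes, with a median of -0.22 against -0.014. In limma-voom 12 of 16 were below 0. The peroxisomal thioesterase Acot4 fell by 0.64 (edgeR, FDR 0.0129), Cyp4a31 fell by 0.86 (edgeR, FDR 0.0431) and the mitochondrial carrier Ucp2 rose by 0.47 (edgeR, FDR 0.0171). The call of Cyp4a31 was lost in limma-voom (FDR 0.0969) and in 10 of the 12 fits that left out 1 mouse, all but those without control mouse 1 or 3 (FDR 0.00304 to 0.0948 over the 12), while Acot4 and Ucp2 were called in all 12. The abundant targets Cyp4a14 and Plin2, at -0.33 and -0.15, did not pass (edgeR, FDR 0.438 and 0.675). The tricarboxylic acid cycle, which burns the acetyl-CoA that is released, gave 2 calls of 17 tested genes (11.8%, against 13.7% of all), Suclg2 up by 0.24 (edgeR, FDR 0.0409) and Idh3a down, at -0.30 (edgeR, FDR 0.0106). Suclg2 was not called with no filter on low counts (FDR 0.0545) or in 10 of the 12 fits that left out 1 mouse, all but those without control mouse 2 or 3 (FDR 0.0133 to 0.0841 over the 12), and Idh3a was called in all 12. Of these 17, 2 had their lowest control value in mouse 3 and 8 their highest, unlike the members. Among the 16 other PPARA targets, 10 had their lowest control value in mouse 3 and 1 its highest.

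**Figure D4:**
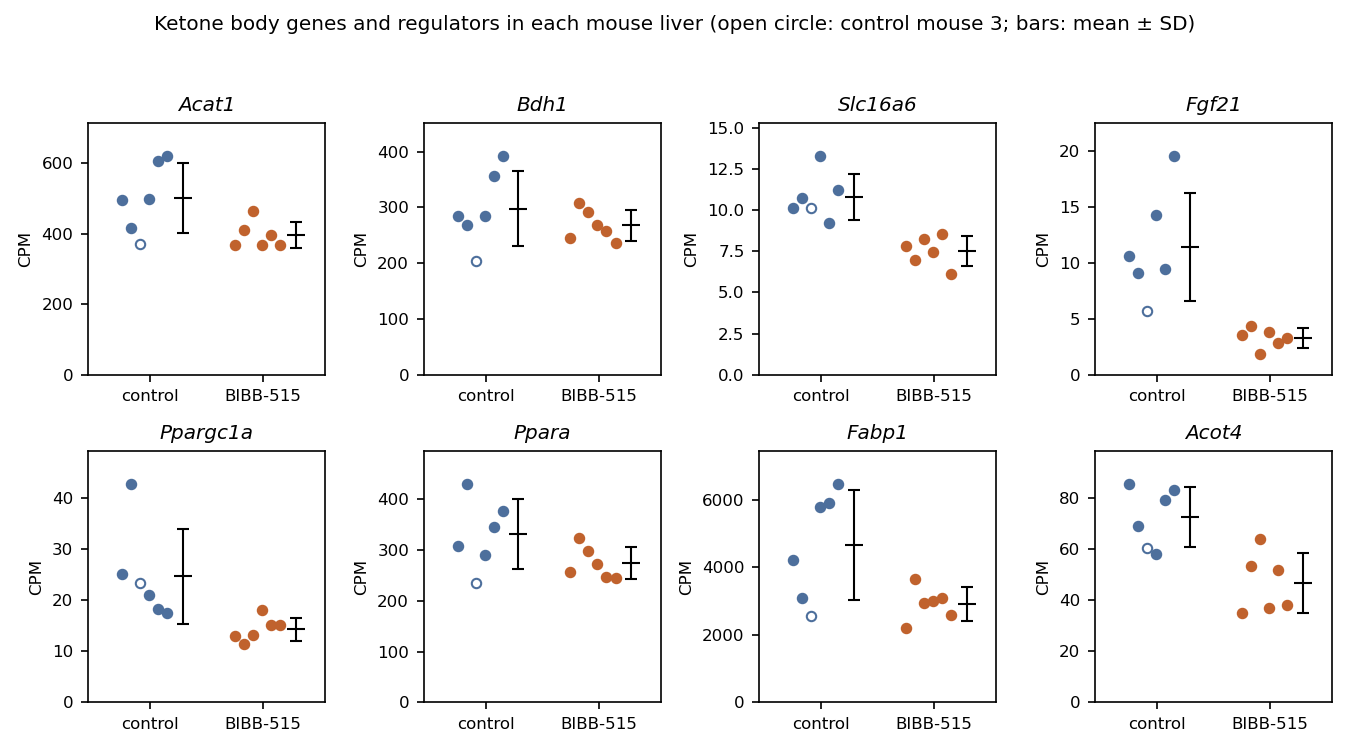
Level in CPM (vertical axis, from 0) of 3 genes of ketone body metabolism and transport, 3 regulators, Fabp1 and Acot4 in 6 control and 6 BIBB-515 mice, with points in order of mouse number, the open circle for control mouse 3, and bars for the mean ± SD. The diets do not overlap in Slc16a6 and Fgf21 and overlap in the other 6 genes.

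Markers of cell types were read beside these values. The 8 hepatocyte markers summed to 148063 to 165049 CPM in control mice and 113597 to 130612 CPM with BIBB-515, with albumin (Alb) the most abundant. Of the 8, 3 fell (Alb, Ttr and Serpina1c) and 0 rose, or 37.5% called against 13.7% of all tested genes. Alb was not called where no filter on low counts was used (FDR 0.0591). Alb made up 74.9% of the sum, and the sums of the other 7 overlapped, at 33216 to 42573 CPM in control and 30912 to 36412 CPM in BIBB-515 mice. Control mouse 3 had the lowest hepatocyte sum of its group, at 148063 CPM, and the highest stellate, endothelial and fat cell sums, at 364, 247 and 11.5 CPM. Its leukocyte and striated muscle sums, at 14.4 and 0.0438 CPM, were also the lowest of the control mice. Its Kupffer cell sum of 320 CPM lay below the control median of 329 CPM, and its bile duct sum of 107 CPM above that of 94.7 CPM. Striated muscle markers, of which 0 of 6 passed the filter, summed to at most 0.767 CPM in any mouse, and of 6 fat cell markers, summing to 6.87 to 11.5 CPM in control and 6.96 to 11.7 CPM in BIBB-515 mice, 1 had no count in any mouse and only Fabp4, which made up 98.4% of the sum, passed the filter and was not called. In control mouse 3 Adipoq, Plin1 and Lep had no count.

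Of the other marker lists, stellate cells had 2 of 6 tested genes lower (Lrat and Dcn), or 33.3% called against 13.7% of all tested genes. The 6 stellate markers summed to 265 to 364 CPM in control and 252 to 312 CPM in BIBB-515 mice, with Dcn most abundant. Lrat, at -0.81 (edgeR, FDR 0.0202), was called with any 1 mouse left out, whereas Dcn, at -0.27 (edgeR, FDR 0.0398), was called in 4 of those 12 fits, those without control mouse 2 or 5 or BIBB-515 mouse 6 or 11, not without control mouse 3 (FDR 0.0756), nor with upper-quartile normalization or no filter on low counts. Kupffer cell, endothelial, bile duct and leukocyte markers had 0 called of 5, 6, 5 and 3 tested genes in edgeR, with 1 at an unadjusted p under 0.05, Spp1 of the bile duct list. Spp1, at 0.44 (edgeR, FDR 0.0664) and 90.6% of the bile duct sum, was called in DESeq2 (FDR 0.0324) and without control mouse 6 (edgeR, FDR 0.0399) or BIBB-515 mouse 7 (edgeR, FDR 0.0373). Marco of the Kupffer cell list, at -0.73 (edgeR, FDR 0.401), was called without BIBB-515 mouse 7, at -1.50 (edgeR, FDR 0.0456), both genes being named after their values were seen. Their sums in CPM overlapped between diets, with medians of 329 and 361 for Kupffer cells, 196 and 194 for endothelium, 94.7 and 117 for bile duct and 17.7 and 14.9 for leukocytes, led by Clec4f, Stab2, Spp1 and Ptprc. The stellate sums overlapped as well. The part of these marker levels in the values of the fatty acid oxidation genes, and in those of control mouse 3, was not tested.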

How the data were processed

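The authors deposited whole-number counts of reads per gene for each mouse, made per the file headers with featureCounts 1.6.3 over the exons of a UCSC annotation of mm10, with no strand option, from reads aligned with STAR 2.5.3a per the submitters' processing notes. Reads on several genes were left out, which touches Hadha, whose exons overlap Gareml; the deposited counts of primary alignments, which per their headers keep such reads, were 0.00252% higher for Hadha and at most 0.0665% higher for any member. The deposited counts per exon were used for description.

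Genes that reached 1 CPM in 10% of the mice or more (2 of 12) were normalized by TMM and tested with edgeR 4.0.16 (quasi-likelihood, R 4.3.3), with Benjamini-Hochberg adjustment over 12481 genes and a call at an FDR of 0.05. Single values were also compared by a two-sided exact permutation test over 924 labelings (smallest p 0.00216), and 5 ratios were adjusted together. The code was tested on simulated data. Depth per mouse is given with the results, and no 2 mice of a group agreed within sampling noise. Alternatives were DESeq2 1.42.0, limma-voom (limma 3.58.1), upper-quartile normalization, no filter, 1 CPM in 6 mice, primary-alignment counts and each mouse left out. Counts per transcript were not used.

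The members and the 8 pathway and 8 marker lists were chosen with earlier results of these data known. Named genes are all members, 13 genes set by name, called genes and the 2 most abundant genes per list, and the 5 genes most like the members. Some genes under this rule are not reported here but stay in every count.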

Additional observations from a re-analysis of the deposited data

Results flagged for a closer look

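In 98 groups of 6 mice examined, 7 had a highest or lowest mouse whose gap to the next mouse, divided by the whole range, exceeded Dixon's 95% critical value, where chance gives about 1 in 20 groups, or 4.9. Acadl was flagged for control mouse 3, whose gap below the other control mice was 0.714 of the range. The log2 ratio of Hadha to Hadhb was flagged for BIBB-515 mouse 10, lowest by 0.628 of the range. Oxct1 was lowest in control mouse 4 (0.667), and Ppargc1a highest in control mouse 2 (0.694). In the BIBB-515 group, the peroxisomal thiolase Acaa1b was highest in mouse 7 (0.643), Dbi, the acyl-CoA binding protein, highest in mouse 11 (0.693) and Esrra lowest in mouse 6 (0.628). The causes were not tested.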

How the results depend on the processing

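No paired analysis was possible because the labels name no pairs of mice across the 2 diets. Members called were 0 in all 6 alternative tools, filters and tables, with 1489 to 2244 of all genes called, and 0 to 1 when a mouse was left out, with 1199 to 1865 called. Where a mouse was left out, the log2 fold change ranged from -0.022 to 0.20 for Cpt2, -0.073 to 0.10 for Acadm, -0.23 to -0.13 for Acadl, -0.13 to 0.00033 for Hadha, -0.063 to 0.21 for Ehhadh, -0.34 to -0.13 for Cpt1a, -0.28 to -0.12 for Hadhb and -0.10 to -0.0052 for Acadvl. The difference of mean log2 CPM used by the permutation test ranged from -0.35 to -0.083 for Cpt1a, -0.0098 to 0.24 for Cpt2, -0.070 to 0.11 for Acadm, -0.24 to -0.13 for Acadl, -0.13 to 0.0015 for Hadha, -0.28 to -0.12 for Hadhb and -0.038 to 0.22 for Ehhadh. The log2 ratios ranged from 0.091 to 0.16 for Hadha to Hadhb, -0.37 to -0.25 for Cpt1a to Cpt2 and -0.24 to -0.13 for Acadl to Acadm. List calls ranged from 1 to 3 for ketone bodies, 1 to 3 for other mitochondrial oxidation, 2 to 3 for peroxisomal oxidation, 0 to 3 for uptake and activation, 3 to 5 for regulators, 2 to 4 for other PPARA targets and 1 to 4 for the tricarboxylic acid cycle.

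DESeq2, which called 18% of all tested genes, called 2 of 6 ketone body, 4 of 17 peroxisomal, 3 of 13 uptake and 6 of 17 cycle genes. In limma-voom, with 13.4% of all called, these were 0 of 13 uptake genes and 2 of 16 other PPARA targets. With no filter, where 8.15% of all were called, 1 of 18 other mitochondrial and 1 of 17 cycle genes were called. With control mouse 4 and BIBB-515 mouse 11 left out, chosen after seeing the data, Acadm was -0.033 and Cpt1a to Cpt2 was -0.25 (exact permutation p = 0.0635). In that fit 1 other mitochondrial, 0 uptake and 1 cycle gene were called, and 9.31% of all 12640 tested genes, against 13.7% with all mice. That fit had fewer mice and more tested genes than the main fit, and the cause of its different calls was not tested.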
